A study of Mus musculus with 2 samples.

Results

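Epicardial and mesothelial cells were picked out of 2 single-cell RNA libraries of the embryonic mouse heart and the tissue behind it, and 145 cells were found among 8972 that passed the quality filter. A cell was taken when it held UMIs (unique molecular identifiers, each standing for 1 captured mRNA molecule) of at least 2 different genes out of Wt1, Tbx18, Upk3b, Upk1b, Lrrn4 and Muc16. It also had to hold 0 UMIs of Epcam and of Cdh5, and less than 0.5% of its UMIs from the cardiac genes Actc1, Tnnt2, Myl7, Myl4, Tnnc1 and Tnni1. The quality filter asked for at least 400 detected genes and at most 10% mitochondrial UMIs. Since measured values chose the cells, the levels of the gating genes are given as a description, and those genes were left out of every test.

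Both libraries were made by Drop-seq, which captures the polyadenylated RNA of each cell on a barcoded bead in a droplet. Heart tube and posterior second heart field (SHF) were dissected from wild-type CD1 embryos at E10.0, and about 80 embryos were pooled for each library. The 2 libraries were biological replicates of a single condition, processed on different days, so there was no treated or mutant group. The comparisons below therefore set the epicardial and mesothelial cells against other cells of the same libraries, and the library was kept as a block in each test. Replicate 1 gave 81 cells and replicate 2 gave 64, which were 2.01% (exact binomial 95% interval 1.60 to 2.49) and 1.30% (1.00 to 1.65) of the cells that passed. The mean share was 1.65% ± 0.501 (SD, n = 2). Paired values in the text are for replicate 1 and then replicate 2.

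The mesothelium is the sheet of cells that lines the body cavities and covers the organs in them, and the epicardium is the mesothelium of the heart. It forms from the proepicardium, a cluster of coelomic cells on the septum transversum beside the venous pole, which attach to the bare heart tube and spread over it. Epicardial cells are joined as an epithelium, and later some of them pass through an epithelial-to-mesenchymal transition and give rise to cardiac fibroblasts and vascular smooth muscle. Wt1, Tbx18 and Tcf21 encode transcription factors of this lineage, while Upk3b, Upk1b and Lrrn4 encode membrane proteins of mesothelial cells. TEAD factors with their cofactors Yap1 and Wwtr1, GATA factors and T-box factors are among the regulators studied in the epicardium.

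The promoters of Tbx18, Upk3b, Lrrn4 and Tdo2 are shown. The first 3 genes helped to choose the cells, and Tdo2 headed the increases over SHF mesenchyme outside the gene lists used below. Sequences are from RefSeq (GRCm38.p6, an mm10 build), 250 bases before to 50 after the gene's start, written in the direction of the gene. Capitals mark the TEAD motif GGAATG or its reverse complement CATTCC.
Tbx18 (chr9:87731211-87731510, - strand): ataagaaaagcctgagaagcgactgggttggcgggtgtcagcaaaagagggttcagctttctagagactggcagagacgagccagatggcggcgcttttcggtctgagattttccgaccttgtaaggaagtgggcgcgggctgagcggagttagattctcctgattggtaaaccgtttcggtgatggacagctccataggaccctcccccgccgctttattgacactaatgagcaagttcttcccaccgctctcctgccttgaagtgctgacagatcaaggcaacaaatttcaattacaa
Upk3b (chr5:136038246-136038545, + strand): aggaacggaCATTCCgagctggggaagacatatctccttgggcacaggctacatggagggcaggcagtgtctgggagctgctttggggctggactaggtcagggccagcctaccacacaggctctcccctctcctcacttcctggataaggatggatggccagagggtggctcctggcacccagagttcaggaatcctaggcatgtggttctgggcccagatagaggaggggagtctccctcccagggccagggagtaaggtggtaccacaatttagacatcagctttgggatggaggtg
Lrrn4 (chr2:132880813-132881112, - strand): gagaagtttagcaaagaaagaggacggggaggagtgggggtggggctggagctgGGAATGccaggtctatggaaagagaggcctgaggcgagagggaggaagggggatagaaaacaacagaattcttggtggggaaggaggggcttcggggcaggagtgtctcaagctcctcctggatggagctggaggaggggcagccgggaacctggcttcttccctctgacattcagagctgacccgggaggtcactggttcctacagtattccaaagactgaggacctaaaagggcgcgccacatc
Tdo2 (chr3:81975679-81975978, - strand): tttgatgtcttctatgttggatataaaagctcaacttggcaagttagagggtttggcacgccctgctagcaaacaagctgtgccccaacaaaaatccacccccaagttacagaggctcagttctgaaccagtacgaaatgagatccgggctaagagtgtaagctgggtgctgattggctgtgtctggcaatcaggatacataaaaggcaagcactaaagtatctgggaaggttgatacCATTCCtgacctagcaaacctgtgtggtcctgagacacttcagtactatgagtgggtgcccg
The motif began 241 bases before the start of Upk3b, 196 before that of Lrrn4 and 12 before that of Tdo2. The Tbx18 promoter held none of the motifs searched, nor did that of Muc16, the other gating gene with an entry. Of the 6 gating genes and the 12 genes outside the lists that were highest over the remaining cells, 15 had an entry, with 18 promoters. On either strand, 6 of these 18 promoters held the TEAD motif, 1 held the GATA motif AGATAA and 0 held the T-box motif AGGTGTGA. Among all 32851 RefSeq promoters of the same length, 14.7% held the TEAD motif, 11.2% the GATA motif and 1.28% the T-box motif. A match describes letters in this window and is no evidence of binding.

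Upk3b was the gating gene found in the most cells. It had a UMI in 115 of the 145 cells (79.3%, exact 95% interval 71.8 to 85.6), Wt1 and Lrrn4 in 86 each (59.3%), Tbx18 in 73 (50.3%) and Upk1b in 19 (13.1%). Muc16, which encodes a mesothelial mucin, had 0 UMIs in all barcodes of both libraries, and 0 of 145 cells allows a share of up to 2.07% of cells with a UMI (3 counts of the total). Wt1 was seen in 67.9% and 48.4% of the cells of the 2 replicates and Lrrn4 in 53.1% and 67.2%, so these genes stood in opposite order in the libraries, while Upk3b held 79.0% and 79.7%. The pairs seen together most often were Upk3b with Lrrn4 in 66 cells, Wt1 with Upk3b in 65 and Tbx18 with Upk3b in 53.

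Deeper cells met more of the rule. The 91 cells with exactly 2 gating genes had a median of 3249 UMIs, the 27 with 3 had 5297, the 19 with 4 had 9952 and the 8 with 5 had 14555. As a description of what the gate selected, Upk3b stood at 450.3 and 469 CPM (the counts of a gene scaled to 1000000 UMIs, computed on the summed UMIs of a class in a library) in the gated cells, against 8.89 and 4.83 CPM in SHF mesenchyme. Wt1 stood at 169 and 185 CPM in the gated cells, against 2.43 and 0 CPM in SHF mesenchyme. Tbx18 stood at 192 and 191 CPM in the gated cells, against 8.89 and 3.63 CPM in SHF mesenchyme. Just inside the limit on gating genes, cells with exactly 2 of them held Tcf21, which the gate did not use, at 169 and 253 CPM, and the 182 and 245 cells just outside it, with 1 gating gene, held it at 131 and 89.3 CPM. Sema3d did not keep 1 order across that limit, at 46.4 and 11.2 CPM in cells with exactly 2 gating genes and 9.61 and 66.6 CPM in cells with 1. The limit on cardiac genes alone left out 12 and 15 cells that carried at least 2 gating genes. The cells inside that limit had a median of 0.148% and 0.140% of their UMIs from the 6 cardiac genes. That median was 0 in both libraries over all passing cells outside the cardiomyocyte class cut below.

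**Figure D1:**
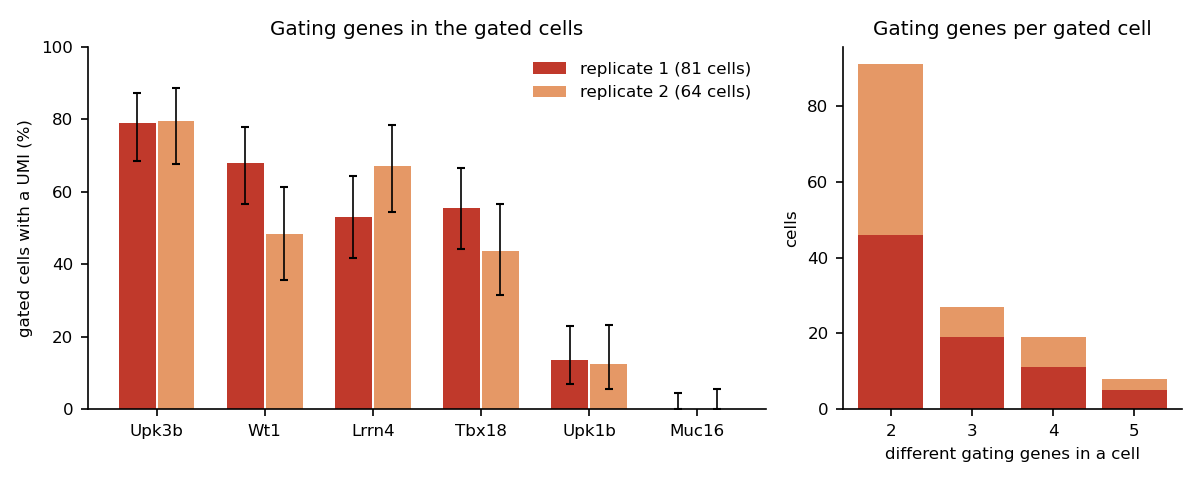
Left, the share of gated cells with a UMI of each gating gene (percent, y axis) in replicate 1 (81 cells) and replicate 2 (64 cells), with bars for exact binomial 95% intervals. Right, the number of gated cells (y axis) by how many different gating genes they held (x axis), stacked by replicate in the same colours. Upk3b reached 79.0% and 79.7%, Muc16 was at 0, and 91 of 145 cells held exactly 2 gating genes.

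A further 4 classes were cut from the same filtered cells by fixed genes, with no cell in more than 1 class. SHF mesenchyme (438 cells) held at least 2 of Isl1, Osr1, Foxf1 and Tbx5, cardiomyocytes (180 cells) had at least 3% of UMIs from the 6 cardiac genes, and epithelial cells (865 cells) held at least 2 of Epcam, Cldn6, Cldn7 and Cdh1. SHF mesenchyme and cardiomyocytes, like the gated cells, held no UMI of Epcam or Cdh5, and epithelial cells none of Cdh5. SHF mesenchyme and epithelial cells also kept the limit on cardiac genes. The other 7344 cells are called remaining cells and mix many types. Because every class was cut from these same cells, each reference lacks or holds some genes by its own rule, and 10 of the 145 gated cells also met the rule for SHF mesenchyme. The gated cells summed to 561866 and 330367 UMIs, so that 3 counts, used as the floor for a gene at 0, are 5.34 and 9.08 CPM. Their median depth was 5456 and 3426 UMIs per cell, against 4050 and 2719 in SHF mesenchyme, 3090 and 3083 in epithelial cells, 1921 and 2048 in cardiomyocytes and 1150 and 1302 in remaining cells.

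The libraries shared 82 barcodes, none of them in a gated cell. A doublet caller (Scrublet) marked 0 and 1 cells by its automatic threshold and so had not worked. As an alternative, cells above the cutoff for the top 5% of doublet scores were left out. This removed 152 of 4038 and 194 of 4934 cells, among them 3 gated cells in each library. In replicate 1, 1 gated cell held 274 UMIs of blood and macrophage markers out of 3104, 253 of them from Lyz2, and the next highest gated cell held 0. Another cell of replicate 1 held 92 UMIs of neural crest and neural markers out of 22581, among them Crabp1 and Tubb3. Both cells were kept, and calls that rest on them are given without them as well.

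Blood and macrophage markers, summed over their list, reached 488 and 3.03 CPM in the gated cells, against 1.62 and 0 CPM in SHF mesenchyme, and the cell with Lyz2 held all of them in replicate 1. Summed likewise, hepatoblast markers reached 46.3 and 24.2 CPM in the gated cells, against 16.2 and 18.1 CPM in SHF mesenchyme. Of these 10 markers, 5 were detected in the gated cells and 5 had 0 UMIs, Apoa1 and Fgb among the latter. Foregut and surface epithelial markers reached 23.1 and 57.5 CPM in the gated cells, against 41.2 and 64.0 CPM in SHF mesenchyme. Cardiomyocyte markers outside the gate reached 89.0 and 87.8 CPM in the gated cells, against 93.8 and 123 CPM in SHF mesenchyme. Neural markers reached 475 and 421 CPM in the gated cells, against 370.3 and 282 CPM in SHF mesenchyme. In replicate 1, 92 of the 267 UMIs behind the gated value came from the 1 cell with many neural markers. The order of the classes in that library may rest on this cell. Endothelial markers reached 118 and 106 CPM in the gated cells, against 142 and 114 CPM in SHF mesenchyme, and erythroid markers 1043 and 1150 CPM in the gated cells, against 1670 and 1247 CPM in SHF mesenchyme. Their part in the differences below was not tested.

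The label was checked with 10 mesothelial and epicardial genes that the gate did not use: Tcf21, Bnc1, Podxl, Sema3d, Krt19, Aldh1a2, Msln, Gpm6a, Nkain4 and Rspo1. Against SHF mesenchyme, 5 of them were higher and 1 was lower, at an adjusted p under 0.05 (two-sided edgeR quasi-likelihood test with Benjamini-Hochberg adjustment over all 10740 genes tested). Over all those genes 8.19% were called, 5.18% higher and 3.02% lower. The gate and these genes are read from the same cells, so the calls describe how the gated cells differ from that reference and are no independent proof of identity.

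Tcf21, the transcription factor of epicardial derivatives and of coelomic mesenchyme, stood at 262 and 327 CPM, against 124 and 145 CPM in SHF mesenchyme (2.18-fold higher, log2 1.13 ± 0.15 SE, adjusted p = 7.04e-07). Podxl, which encodes the sialomucin podocalyxin of mesothelial and podocyte surfaces, stood at 212 and 282 CPM, against 46.1 and 66.5 CPM in SHF mesenchyme (4.43-fold higher, log2 2.15 ± 0.18 SE, adjusted p = 1.35e-11). Bnc1, a zinc-finger gene of basal and mesothelial epithelia, stood at 40.9 and 30.3 CPM, against 2.42 and 3.62 CPM in SHF mesenchyme (12.4-fold higher, log2 3.63 ± 0.63 SE, adjusted p = 8.83e-05). For each of these genes both libraries of gated cells lay above both libraries of SHF mesenchyme.

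Sema3d, a secreted semaphorin known from the proepicardium, stood at 65.8 and 42.4 CPM, against 8.09 and 9.67 CPM in SHF mesenchyme (6.48-fold higher, log2 2.70 ± 0.40 SE, adjusted p = 6.74e-06). Krt19, a keratin of simple epithelia and mesothelium, stood at 58.7 and 81.7 CPM, against 1.62 and 1.21 CPM in SHF mesenchyme (a ratio of 46.3 with an exact 95% counting interval of 15.1 to 231, higher, adjusted p = 5.17e-10). Aldh1a2, which encodes the retinaldehyde dehydrogenase that makes retinoic acid in lateral mesoderm and epicardium, went the other way with 37.4 and 106 CPM, against 145 and 175 CPM in SHF mesenchyme (2.46-fold lower, log2 -1.30 ± 0.26 SE, adjusted p = 5.39e-04). The gated and mesenchymal libraries did not overlap for any of the 3 genes, but Aldh1a2 differed between the 2 libraries of gated cells by more than its fold between the classes. Its log2 difference was -1.92 within replicate 1 and -0.71 within replicate 2.

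Nkain4 and Rspo1 were not called, with 14.2 and 12.1 CPM, against 29.1 and 25.4 CPM in SHF mesenchyme for Nkain4 (adjusted p = 0.212) and 12.5 and 12.1 CPM, against 30.7 and 36.2 CPM in SHF mesenchyme for Rspo1 (adjusted p = 0.0692). With at least 3 gating genes both were called lower, by -2.68 on the log2 scale for Nkain4 (adjusted p = 0.0367) and -3.90 for Rspo1 (adjusted p = 0.0115). Gpm6a had 6 and 1 UMIs in the gated cells and was too low to test. Msln, the gene of mesothelin, had 0 UMIs in every class. The gated cells thus carried 5 of the markers outside the gate above the level of SHF mesenchyme, while the mesothelial genes Msln and Muc16 were not detected at this depth.

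Tcf21 was also read per cell. It had a UMI in 59.3% and 53.1% of gated cells, against 36.2% and 33.99% of SHF mesenchyme and 2.87% and 3.29% of epithelial cells, a class not known to use the gene. With each cell thinned to 1000 UMIs, which left out 6 and 3 gated cells below that depth, the shares were 20.0% and 23.0% in gated cells, against 8.29% and 11.6% in SHF mesenchyme and 0.912% and 1.67% in epithelial cells. The share of Tcf21 in gated cells stayed above the others in each library at matched depth, as did that of Podxl against SHF mesenchyme. Bnc1, Sema3d and Krt19 kept the same order against SHF mesenchyme, but on only 2 to 4 gated cells per library. Sema3d in replicate 2 was seen in 2 of 61 gated cells, against 2 of 181 in SHF mesenchyme. The exact binomial intervals of these classes overlapped in each library for every gene but Podxl, so the thinned shares do not settle the order of the rarer genes. The thinned share of Gata4 was 10.7% and 13.1% in gated cells, against 6.45% and 14.4% in SHF mesenchyme, so that it kept no order across the libraries.

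**Figure D2:**
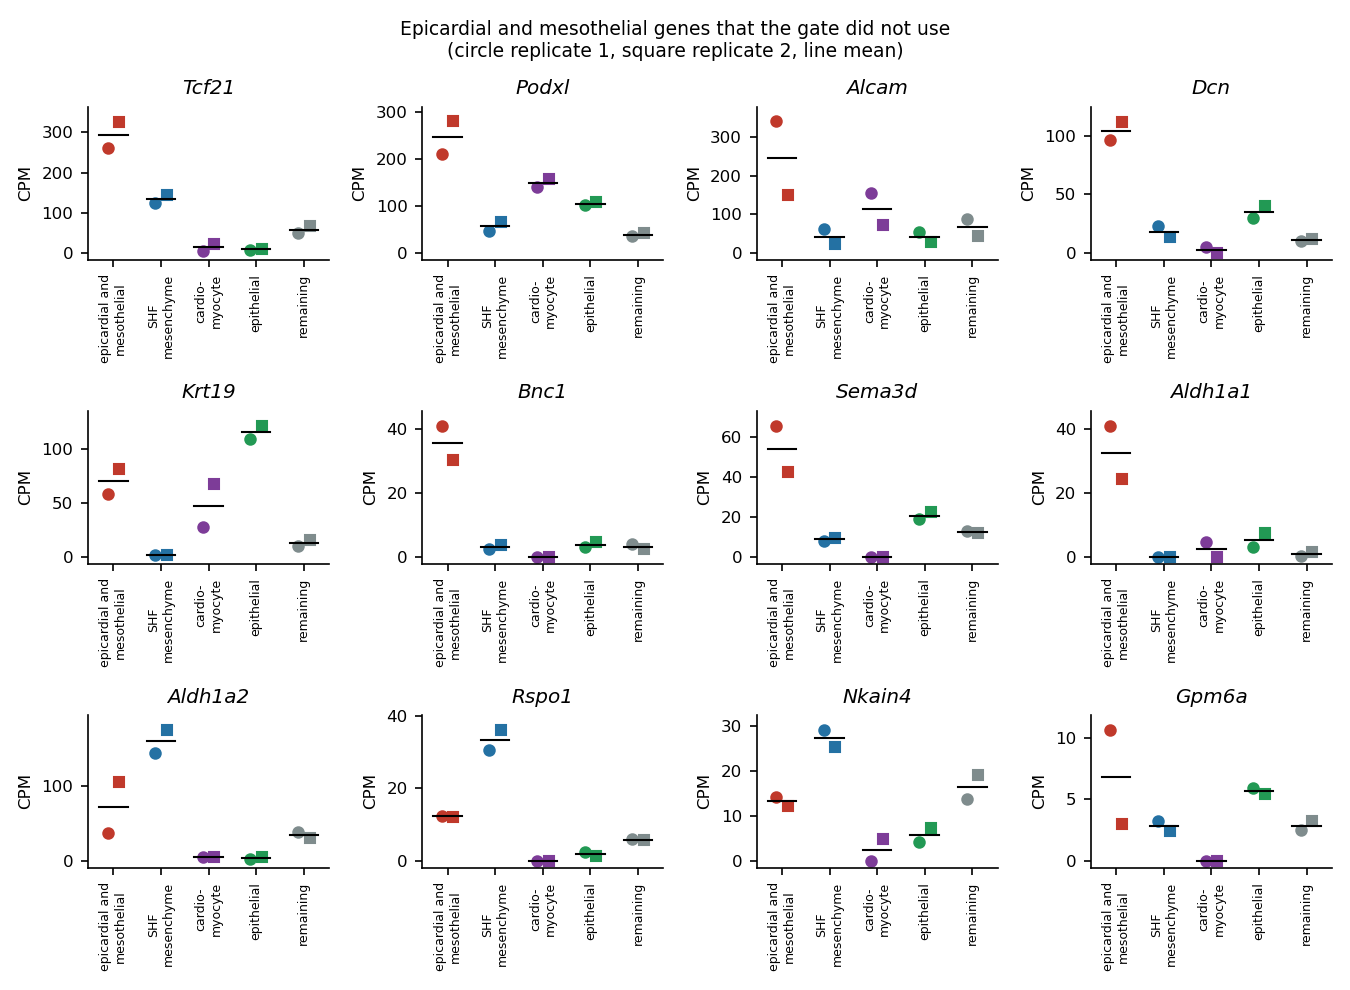
Each panel plots the CPM (y axis, linear) of 1 gene outside the gate in the summed cells of 5 classes (x axis), with a circle for replicate 1, a square for replicate 2 and a line for their mean. Tcf21, Podxl, Bnc1 and Sema3d were highest in the epicardial and mesothelial cells in both replicates. Aldh1a2, Rspo1 and Nkain4 were highest in SHF mesenchyme, and Krt19 in epithelial cells.

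The comparison with SHF mesenchyme, the adjoining mesoderm of the dissected field, found 556 genes higher (5.18% of 10740) and 324 lower (3.02%) in the epicardial and mesothelial cells. Of these, 379 were higher and 162 lower by more than 2-fold, and the median log2 difference of all tested genes was -0.03. In libraries simulated from these counts, the same fit called 96.0% of 4-fold and 61.2% of 2-fold increases, and 63.0% of 4-fold and 35.6% of 2-fold decreases, so that decreases were found less often than increases of the same size. The simulated sums held no library effect and no other class differences. Changes were placed only in genes above a minimum expected count, so the rates do not hold for rarer genes. The residual degrees of freedom were 4, and the p-values rest on 2 libraries of pooled embryos.

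The genes with the largest increases were taken outside the gene lists described below, among called genes above 50 CPM in the gated cells. They joined metabolic enzymes, cytoskeletal and adhesion proteins and a transcription factor. Several list members given below rose by more than some of these genes. Tdo2 (chromosome 3), the tryptophan dioxygenase gene best known from liver, stood at 65.8 and 54.5 CPM, against 0.808 and 1.21 CPM in SHF mesenchyme (a ratio of 63.6 with an exact 95% counting interval of 16.8 to 539, higher, adjusted p = 9.63e-08). Mical2, which encodes an actin-oxidising monooxygenase, stood at 60.5 and 42.4 CPM, against 1.62 and 0 CPM in SHF mesenchyme (a ratio of 55.5 with an exact 95% counting interval of 14.6 to 472, higher, adjusted p = 1.42e-07). Scx, the gene of scleraxis, a bHLH factor of tendon progenitors that is also known in the proepicardium, stood at 60.5 and 45.4 CPM, against 2.42 and 1.21 CPM in SHF mesenchyme (27.5-fold higher, log2 4.78 ± 0.61 SE, adjusted p = 2.58e-07). These 3 genes had at most 3 UMIs in either library of SHF mesenchyme. Tdo2 had UMIs in 16 gated cells, and in replicate 2 a single cell held 14 of its 18 UMIs.

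Alox8, a lipoxygenase gene, stood at 55.2 and 96.9 CPM, against 0.808 and 6.04 CPM in SHF mesenchyme (25.1-fold higher, adjusted p = 7.04e-07), but its 63 UMIs came from 5 gated cells and 29 of them from 1 cell. In cells with at least 3 gating genes its log2 difference was 1.13 and it was not called (adjusted p = 0.401). Car4, a membrane-bound carbonic anhydrase, stood at 53.4 and 139 CPM, against 4.04 and 3.62 CPM in SHF mesenchyme (22.1-fold higher, adjusted p = 1.08e-08). Anxa2, an annexin that binds membranes and actin, stood at 333 and 260.3 CPM, against 17.8 and 41.1 CPM in SHF mesenchyme (11.3-fold higher, adjusted p = 9.57e-14). Within single libraries the log2 difference was 5.53 within replicate 1 and 3.89 within replicate 2 for Alox8, 3.61 within replicate 1 and 5.06 within replicate 2 for Car4 and 4.20 within replicate 1 and 2.65 within replicate 2 for Anxa2.

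A further 3 genes were spread over many gated cells. Smim1, which encodes a small membrane protein of red cells in human, had UMIs in 84 of the 145 cells and stood at 242 and 351 CPM, against 27.5 and 19.3 CPM in SHF mesenchyme (11.9-fold higher, log2 3.57 ± 0.23 SE, adjusted p = 3.73e-14). Stk26, a kinase of the Ste20 family, had UMIs in 72 cells and stood at 258 and 145 CPM, against 17 and 18.1 CPM in SHF mesenchyme (12.2-fold higher, log2 3.60 ± 0.27 SE, adjusted p = 1.07e-12). Tmem108, a transmembrane protein gene, had UMIs in 73 cells and stood at 129.9 and 157 CPM, against 13.7 and 16.9 CPM in SHF mesenchyme (9.41-fold higher, log2 3.23 ± 0.29 SE, adjusted p = 8.98e-11). The lowest gated library lay several-fold above the highest mesenchymal library for each. Mgarp, a mitochondrial protein gene (12.8-fold), the adhesion adaptor gene Bcar3 (12.3-fold) and the collagen receptor gene Ddr1 (11.2-fold) completed the 12 largest increases outside the lists.

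The largest decreases outside the lists, among called genes above 50 CPM in SHF mesenchyme, included transcription factor genes, secreted products and enzymes. Msc, which encodes the bHLH factor musculin of pharyngeal muscle precursors, had 0 UMIs in both libraries of gated cells, against 64.7 and 42.3 CPM in SHF mesenchyme (at least 7.42-fold lower, adjusted p = 7.13e-07). Nkx6-1, a homeobox gene, stood at 1.78 and 6.05 CPM, against 113 and 85.8 CPM in SHF mesenchyme (a ratio of 30.4 with an exact 95% counting interval of 10.3 to 149, lower, adjusted p = 1.65e-09). Cxcl13, a chemokine gene, stood at 10.7 and 12.1 CPM, against 208 and 185 CPM in SHF mesenchyme (17.7-fold lower, log2 -4.14 ± 0.34 SE, adjusted p = 9.92e-12). The gated libraries lay far below the mesenchymal ones for all 3.

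Fendrr, a long non-coding RNA transcribed away from the Foxf1 promoter, stood at 3.56 and 6.05 CPM, against 67.1 and 36.2 CPM in SHF mesenchyme (12-fold lower, adjusted p = 1.19e-05), and Foxf1 is among the genes that chose the mesenchyme. Barx1, the homeobox gene of stomach mesenchyme, stood at 30.3 and 9.08 CPM, against 108 and 77.3 CPM in SHF mesenchyme (4.28-fold lower, adjusted p = 1.59e-05). Sparcl1, a matricellular glycoprotein gene, stood at 12.5 and 54.5 CPM, against 344 and 180.1 CPM in SHF mesenchyme (9.54-fold lower, adjusted p = 1.14e-09). The log2 difference of Sparcl1 was -4.69 within replicate 1 and -1.69 within replicate 2. Arg1, the gene of arginase, also varied, with -2.90 within replicate 1 and -1.19 within replicate 2. Ifitm1, Dpysl3, Col9a1, Arl4a and Car14 made up the 12, at 3.57-fold (Car14) to 7.53-fold (Ifitm1) lower.

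**Figure D3:**
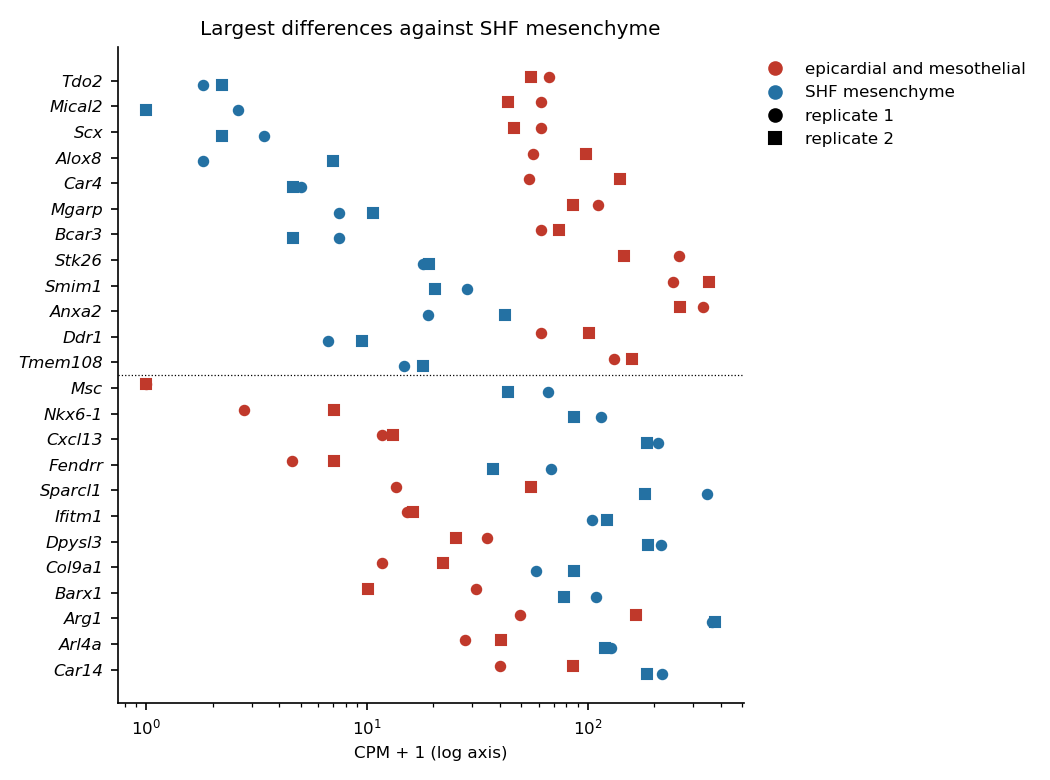
CPM plus 1 (x axis, log scale) of the 12 genes with the largest increase (above the dotted line) and the 12 with the largest decrease (below it) in epicardial and mesothelial cells (red) against SHF mesenchyme (blue). Circles are replicate 1 and squares replicate 2. The classes did not overlap for any of the 24 genes, which were chosen for their differences outside the gene lists. Some list members differed by more.

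Among proepicardial and septum transversum transcription factors, 8 were higher and 3 lower in the gated cells out of 22 that passed the filter on low counts, from a list of 29. Here and below, a gene that passed the filter only through the class where it is high had to differ, so the counts describe the lists and support no more. The list's median log2 difference was 0.25, against -0.03 over all genes. Lhx9, a LIM homeobox gene of coelomic epithelium, had UMIs in 52 gated cells and stood at 194 and 263 CPM, against 10.5 and 2.42 CPM in SHF mesenchyme (31.6-fold higher, log2 4.98 ± 0.38 SE, adjusted p = 1.68e-12). Mab21l2, needed for proepicardial and liver growth in mouse, stood at 103 and 93.8 CPM, against 17.8 and 12.1 CPM in SHF mesenchyme (6.47-fold higher, log2 2.69 ± 0.34 SE, adjusted p = 1.72e-07). Gata4, Hand1, Hand2, Tcf21, Tead1 and Wwtr1 were the other members called higher. Nr2f2, an orphan nuclear receptor gene, stood at 229.6 and 215 CPM, against 407 and 431 CPM in SHF mesenchyme (1.87-fold lower, log2 -0.90 ± 0.13 SE, adjusted p = 2.11e-06), and Tead2 and Tbx3 were also lower. The members of the TEAD family thus stood in opposite order, Tead1 higher and Tead2 lower.

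Secreted growth and guidance factors were more often higher than lower, with 10 higher and 3 lower of 31 tested out of 37 and a median of 0.73. Ptn, which encodes the heparin-binding factor pleiotrophin, stood at 2175 and 1371 CPM, against 686 and 529 CPM in SHF mesenchyme (2.93-fold higher, log2 1.55 ± 0.11 SE, adjusted p = 7.66e-13). Igf2, the embryonic growth factor known as an epicardial mitogen for the myocardium, stood at 2049 and 1874 CPM, against 947 and 1051 CPM in SHF mesenchyme (1.99-fold higher, log2 0.99 ± 0.08 SE, adjusted p = 2.43e-11). Sfrp5, a secreted Wnt antagonist of sinus venosus and proepicardial progenitors, stood at 171 and 284 CPM, against 27.5 and 24.2 CPM in SHF mesenchyme (8.32-fold higher, log2 3.06 ± 0.29 SE, adjusted p = 3.72e-10). Both gated libraries exceeded both mesenchymal libraries for each of these genes. Angpt1, the Tie2 ligand angiopoietin, stood at 231 and 112 CPM, against 16.2 and 15.7 CPM in SHF mesenchyme (11.4-fold higher, adjusted p = 4.76e-10). Mdk, Cxcl12 and Efnb2 were the members called lower.

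Of 30 tested receptors and adhesion molecules out of 35, 5 were higher and 1 lower, with a median of 0.04. Itga4, which encodes the α4 integrin that binds Vcam1 on the myocardium and is needed for epicardial attachment in mouse, had UMIs in 45 gated cells and stood at 238 and 182 CPM, against 8.89 and 7.25 CPM in SHF mesenchyme (26.8-fold higher, log2 4.75 ± 0.34 SE, adjusted p = 3.31e-13). Plxna4, a semaphorin receptor gene, stood at 73 and 45.4 CPM, against 2.42 and 1.21 CPM in SHF mesenchyme (31.3-fold higher, log2 4.97 ± 0.54 SE, adjusted p = 8.80e-09). Its coreceptor gene Nrp1 stood at 281 and 166 CPM, against 90.5 and 38.7 CPM in SHF mesenchyme (3.42-fold higher, log2 1.77 ± 0.21 SE, adjusted p = 4.81e-08), and Nrp2 and Itgb1, the β partner of Itga4, were higher too. The semaphorin Sema3d and these receptors were thus all higher in the gated cells. Fgfr1 was the only member called lower, at 17.8 and 27.2 CPM, against 65.5 and 50.8 CPM in SHF mesenchyme (2.77-fold lower, adjusted p = 0.00321).

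Epithelial junction, keratin and polarity genes had 12 members higher and 0 lower of 30 tested, all those listed, with a median of 0.90, or 0.69 with the 2 genes at 0 UMIs in a class put at their bound. The gate itself excluded Epcam, so this list touches genes that often accompany it. Ezr, which encodes ezrin that ties actin to the apical membrane, stood at 359.5 and 251 CPM, against 130.2 and 111 CPM in SHF mesenchyme (2.58-fold higher, log2 1.37 ± 0.15 SE, adjusted p = 6.41e-09). Krt18, a keratin of simple epithelia, stood at 198 and 333 CPM, against 88.1 and 117 CPM in SHF mesenchyme (2.52-fold higher, log2 1.34 ± 0.17 SE, adjusted p = 1.53e-07). F11r, the gene of the tight-junction protein JAM-A, stood at 103 and 93.8 CPM, against 13.7 and 31.4 CPM in SHF mesenchyme (4.77-fold higher, adjusted p = 2.77e-07). The epithelial genes were joined by genes tied to a mesenchymal state: of 17 tested members of the epithelial-to-mesenchymal transition list of 18, 7 were higher and 3 lower, with a median of 0.46.

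Vim, the intermediate filament gene of mesenchymal and mesothelial cells, stood at 1050 and 984 CPM, against 431 and 519.6 CPM in SHF mesenchyme (2.18-fold higher, log2 1.12 ± 0.10 SE, adjusted p = 4.72e-11). Sox9, a factor of epicardial and valve mesenchyme, stood at 235 and 230 CPM, against 60.6 and 61.6 CPM in SHF mesenchyme (3.85-fold higher, log2 1.94 ± 0.21 SE, adjusted p = 1.15e-08). Lgals1, the galectin gene, stood at 892 and 838 CPM, against 246 and 303 CPM in SHF mesenchyme (3.23-fold higher, log2 1.69 ± 0.10 SE, adjusted p = 1.04e-14). Snai1, the transcriptional repressor of E-cadherin, was among the 3 lower members with Cdh11 and Mmp2, so the genes of this list did not move one way.

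Basement membrane and matrix genes had 9 members higher and 1 lower of 26 tested out of 28, with a median of 0.87. Sparc, a collagen-binding glycoprotein gene, had UMIs in 122 gated cells and stood at 1196 and 902 CPM, against 258 and 245 CPM in SHF mesenchyme (4.24-fold higher, log2 2.08 ± 0.12 SE, adjusted p = 2.78e-15). Hapln1, which encodes a link protein of hyaluronan and proteoglycans, stood at 272 and 206 CPM, against 56.6 and 29 CPM in SHF mesenchyme (5.45-fold higher, log2 2.45 ± 0.22 SE, adjusted p = 5.31e-11). Vcan, the proteoglycan versican that the link protein binds, went the other way with 235 and 157 CPM, against 548 and 302 CPM in SHF mesenchyme (2.2-fold lower, log2 -1.14 ± 0.14 SE, adjusted p = 6.21e-08). Fn1 and Col1a2 were each 2.18-fold higher. Igfbp5, an insulin-like growth factor binding protein on the mesothelial list, had UMIs in 122 gated cells and stood at 1801 and 1414 CPM, against 376 and 262 CPM in SHF mesenchyme (5.03-fold higher, log2 2.33 ± 0.17 SE, adjusted p = 3.31e-13). The mesothelial and epicardial list outside the gate had 13 members higher and 1 lower of 20 tested out of 30, with a median of 1.45.

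Smooth muscle and contractile genes had 10 members higher and 1 lower of 20 tested out of 22, with a median of 0.57. Ctgf and Cyr61, matricellular genes known as targets of Yap and TEAD, stood at 55.2 and 33.3 CPM, against 4.85 and 3.62 CPM in SHF mesenchyme for Ctgf (10.7-fold higher, adjusted p = 1.19e-05) and at 128 and 75.7 CPM, against 38.8 and 10.9 CPM in SHF mesenchyme for Cyr61 (3.94-fold higher, adjusted p = 1.19e-05). Cnn3, an actin-binding calponin gene, stood at 1025 and 1156 CPM, against 526 and 631 CPM in SHF mesenchyme (1.91-fold higher, adjusted p = 4.86e-09). Both gated libraries were above both mesenchymal libraries for these 3 genes. Ctgf, however, had only 42 UMIs in 18 of the 145 gated cells, 16 of them in 1 cell. Csrp2, a LIM-domain gene of smooth muscle precursors, was 2.11-fold lower.

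**Figure D4:**
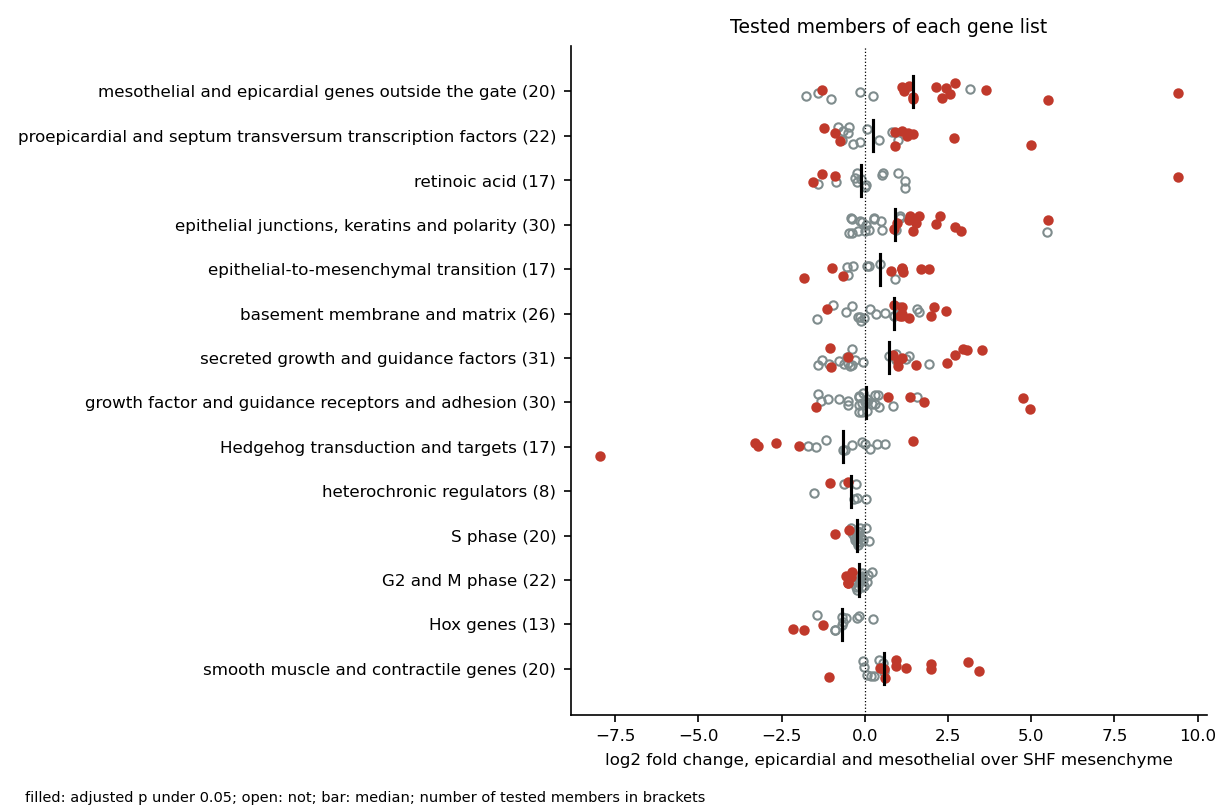
Each point is a tested gene, placed by its log2 fold change of epicardial and mesothelial cells over SHF mesenchyme (x axis) in its gene list (y axis, number tested in brackets). Filled points passed an adjusted p under 0.05, bars are list medians, and fitted values of genes at 0 UMIs in a class, such as Aldh1a1, have no meaningful size. The median was 1.45 for mesothelial and epicardial genes outside the gate, 0.87 for matrix genes and -0.66 for Hedgehog genes.

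Retinoic acid genes had 1 member higher and 3 lower of 17 tested out of 19. Aldh1a1, a retinaldehyde dehydrogenase related to Aldh1a2, stood at 40.9 and 24.2 CPM in the gated cells, against 0 UMIs in both libraries of SHF mesenchyme (at least 10.8-fold higher, adjusted p = 2.01e-05). Crabp2, which carries retinoic acid to its receptor, stood at 155 and 176 CPM, against 272 and 362 CPM in SHF mesenchyme (1.87-fold lower, adjusted p = 1.25e-04). Rdh10, which makes retinaldehyde, stood at 8.9 and 21.2 CPM, against 49.3 and 27.8 CPM in SHF mesenchyme (2.96-fold lower, adjusted p = 0.0185). The 2 dehydrogenase genes thus stood in opposite order, and Rdh10 differed by -2.35 within replicate 1 and -0.32 within replicate 2 on the log2 scale.

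Hedgehog transduction and target genes had 1 member higher and 5 lower of 17 tested out of 20, with a median of -0.66. In this pathway Ptch1 is the receptor that holds the signal off, Gli1 is a transcriptional effector, and Ptch1, Hhip and Gli1 are themselves induced by the signal. Ptch1 stood at 19.6 and 12.1 CPM, against 108 and 104 CPM in SHF mesenchyme (6.35-fold lower, log2 -2.67 ± 0.32 SE, adjusted p = 6.88e-08). Hhip stood at 1.78 and 9.08 CPM, against 54.2 and 32.6 CPM in SHF mesenchyme (9.91-fold lower, log2 -3.31 ± 0.59 SE, adjusted p = 1.13e-04), and Gli1 stood at 12.5 and 9.08 CPM, against 41.2 and 49.5 CPM in SHF mesenchyme (3.93-fold lower, log2 -1.97 ± 0.44 SE, adjusted p = 0.00208). All 3 target genes were lower in each library of gated cells than in either library of SHF mesenchyme. The forkhead genes Foxl1 and Foxf2 were the other lower members. Gas1, a membrane protein that helps Hedgehog ligands reach Ptch1, was higher, at 149.5 and 103 CPM, against 55 and 37.5 CPM in SHF mesenchyme (2.75-fold higher, adjusted p = 5.68e-06). The class of reference was chosen in part by Foxf1, which stands on the same list and was left out of this comparison. The list did not lean to lower levels against the other classes. Of 18 tested members, 1 was higher and 1 lower against remaining cells, 2 and 0 against cardiomyocytes, and 2 and 2 against epithelial cells. Of the 3 target genes, only Ptch1 was called lower in any of these, against epithelial cells.

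Of 13 Hox genes tested out of 27, 0 were higher and 3 lower, namely Hoxb1, Hoxa2 and Hoxa3. Hoxb1 stood at 26.7 and 48.4 CPM, against 72.8 and 102 CPM in SHF mesenchyme (2.4-fold lower, adjusted p = 0.0018). Heterochronic regulators, genes that set developmental timing, had 0 higher and 2 lower of 8 tested. Mycn, which encodes the proliferation factor N-Myc, stood at 67.6 and 93.8 CPM, against 151 and 180.1 CPM in SHF mesenchyme (2.07-fold lower, adjusted p = 0.00103), and Igf2bp1 was 1.42-fold lower. Cell-cycle genes differed little in size: 0 were higher and 2 lower of 20 S-phase genes, and 0 higher and 5 lower of 22 G2 and M-phase genes. Rrm2 of the first list was 1.38-fold lower and Cdc20 of the second 1.49-fold lower. Ube2c, Kif20b and Ccnb1 lost their calls when the 2 cells with blood or neural markers were left out (adjusted p = 0.0554, 0.0754 and 0.101).

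Few markers of other cell types were called against SHF mesenchyme. Tubb3, a tubulin gene of neurons, stood at 153 and 139 CPM, against 28.3 and 8.46 CPM in SHF mesenchyme (7.33-fold higher, adjusted p = 3.04e-07). Trf, the transferrin gene of the hepatoblast list, had 11 and 1 UMIs in the gated cells and lost its call without the 2 cells with blood or neural markers (log2 0.25, adjusted p = 0.967). Cryab was higher (9.66-fold), and Nkx2-5 (6.73-fold) and the endocardial marker Npr3 (4.89-fold) were lower.

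The comparison with SHF mesenchyme depended on the library block. Without it, 160 genes were higher and 30 lower, and 31 of the 122 genes named by rule lost their call, among them Tcf21, Aldh1a2, Tead2, Fn1, Col1a2, Vcan, Nrp1, Itgb1, Fgfr1, Mycn, Rrm2, Cdc20, Cnn3, Csrp2, Cyr61, Crabp2, Rdh10 and the 3 Hox genes. When each cell was thinned to 1000 UMIs the counts were 121 and 43 of 5376 genes tested. Of the 122 genes, 65 kept their result, called or not, and others fell below the filter on low counts and were not tested. A further 26 were tested and lost their call. Among them were Krt19, Mical2, Barx1, Col9a1, Nr2f2, Crabp2, F11r, Itgb1, Fgfr1, Ptch1, Mycn, Rrm2, Cdc20, Hoxb1, Csrp2, Ctgf, Cyr61, Cryab, Nkx2-5 and Npr3. Tead2 then differed by -0.44 on the log2 scale (adjusted p = 0.434) and Igf2bp1 by -0.23 (adjusted p = 0.787).

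Against epithelial cells, 778 genes were higher (7.24% of 10741) and 680 lower (6.33%) in the epicardial and mesothelial cells. This asks which genes separate the mesothelial sheet from epithelia of the foregut, surface and liver bud that the gate removed by Epcam. Tcf21 stood at 262 and 327 CPM, against 7.68 and 9.57 CPM in epithelial cells (34.2-fold higher, log2 5.10 ± 0.21 SE, adjusted p = 1.02e-20). Aldh1a2 stood at 37.4 and 106 CPM, against 2.36 and 5.01 CPM in epithelial cells (16.5-fold higher, log2 4.05 ± 0.46 SE, adjusted p = 7.55e-09), so that it was above epithelial cells and below SHF mesenchyme. Its 56 UMIs came from 23 gated cells, 15 of them from 1 cell. With cells thinned to 1000 UMIs its log2 difference from epithelial cells was 2.76 and it was not called (edgeR, adjusted p = 0.0902). Krt19, which was above SHF mesenchyme, was below epithelial cells, at 58.7 and 81.7 CPM, against 109 and 122 CPM in epithelial cells (1.65-fold lower, log2 -0.72 ± 0.22 SE, adjusted p = 0.0243). That call of Krt19 was lost with DESeq2 (adjusted p = 0.141), without the library block (0.348), with cells thinned to 1000 UMIs (0.0612) and with at least 3 gating genes, where the log2 difference was -0.07 (0.922).

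Genes of the lists named from here on were chosen after their values were seen. The epithelial-to-mesenchymal transition list had 12 members higher and 0 lower of 17 tested out of 18 against epithelial cells, with a median of 1.87, beside -0.03 over all genes. Vim stood at 1050 and 984 CPM, against 65.6 and 73 CPM in epithelial cells (14.8-fold higher, log2 3.88 ± 0.11 SE, adjusted p = 1.61e-25). Junction and keratin genes divided: 5 were higher and 10 lower of 30, with a median of -0.27. Cdh2, the N-cadherin gene, stood at 215 and 188 CPM, against 36 and 48.8 CPM in epithelial cells (4.56-fold higher, log2 2.19 ± 0.20 SE, adjusted p = 3.69e-11), while Krt18 stood at 198 and 333 CPM, against 847 and 869 CPM in epithelial cells (3.35-fold lower, log2 -1.75 ± 0.12 SE, adjusted p = 5.77e-14). Podxl was 2.33-fold higher and Krt8 lower. Against this reference the gated cells held more of N-cadherin and less of the simple-epithelial keratins.

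Matrix genes also divided against epithelial cells, with 14 higher and 8 lower of 26 tested. Col3a1 stood at 246 and 203 CPM, against 10 and 9.12 CPM in epithelial cells (23.6-fold higher, adjusted p = 8.40e-20), and Col4a1, a collagen of basement membranes, stood at 67.6 and 54.5 CPM, against 143 and 129.9 CPM in epithelial cells (2.18-fold lower, adjusted p = 5.64e-05). Of the secreted factors, 15 were higher and 3 lower of 31. Unc45b, a myosin chaperone gene of muscle, stood at 60.5 and 69.6 CPM, against 0.591 and 0.912 CPM in epithelial cells (a ratio of 82.8 with an exact 95% counting interval of 26.9 to 413, higher, adjusted p = 4.90e-11). Lsp1, an actin-binding protein gene of leukocytes, stood at 167 and 124 CPM, against 6.5 and 5.93 CPM in epithelial cells (23.4-fold higher, adjusted p = 5.11e-16). Esrp1, the epithelial splicing regulator, had 0 UMIs in both gated libraries, against 106 and 96.7 CPM in epithelial cells (at least 14-fold lower, adjusted p = 3.95e-11). Foregut and hepatoblast markers were lower for all 11 and all 9 tested, which the exclusion of Epcam favours by construction.

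Against cardiomyocytes, 988 genes were higher (9.20% of 10744) and 1077 lower (10.0%). The lower side holds the contractile programme that the gate's cardiac limit removed, and all 12 cardiomyocyte markers outside the gate were lower. Cell-cycle genes were higher: 12 of 20 S-phase genes and 18 of 22 G2 and M-phase genes were called higher and 0 lower, with medians of 1.04 and 0.96, beside 0.05 over all genes. Top2a, the topoisomerase of dividing cells, stood at 1075 and 539 CPM, against 401 and 228 CPM in cardiomyocytes (2.23-fold higher, log2 1.16 ± 0.13 SE, adjusted p = 3.55e-09). Rrm2, a subunit of ribonucleotide reductase, stood at 288 and 406 CPM, against 95.6 and 137 CPM in cardiomyocytes (2.46-fold higher, log2 1.30 ± 0.18 SE, adjusted p = 3.43e-07). Both gated libraries were above both cardiomyocyte libraries for these genes. Median depth per cell was 5456 and 3426 UMIs in the gated cells, against 1921 and 2048 in cardiomyocytes, and its part in these values was not tested.

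Fbln2, the gene of a matrix fibulin, stood at 87.2 and 72.7 CPM in the gated cells, against 0 UMIs in both cardiomyocyte libraries (at least 7.67-fold higher, adjusted p = 2.77e-07). Cthrc1, a secreted collagen-triple-helix protein gene, stood at 107 and 93.8 CPM, against 4.55 and 0 CPM in cardiomyocytes (a ratio of 64.9 with an exact 95% counting interval of 11.4 to 2593, higher, adjusted p = 2.49e-07). Sema3d stood at 65.8 and 42.4 CPM in the gated cells, against 0 UMIs in both cardiomyocyte libraries (at least 5.19-fold higher, adjusted p = 4.72e-06). Podxl was not called against cardiomyocytes, with 212 and 282 CPM, against 141 and 158 CPM in cardiomyocytes (adjusted p = 0.0627). Igf2 was lower in the gated cells here, at 2049 and 1874 CPM, against 2381 and 2515 CPM in cardiomyocytes (1.43-fold lower, log2 -0.52 ± 0.09 SE, adjusted p = 1.21e-05), and Angpt1 was also lower, at 231 and 112 CPM, against 578 and 556 CPM in cardiomyocytes (3.88-fold lower, adjusted p = 3.12e-09). Both secreted factors thus stood above SHF mesenchyme and below cardiomyocytes.

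Against the remaining cells, a mixture of types, 583 genes were higher (5.43% of 10744) and 374 lower (3.48%). Tdo2 stood at 65.8 and 54.5 CPM, against 1.88 and 1.15 CPM in remaining cells (36.5-fold higher, log2 5.19 ± 0.46 SE, adjusted p = 4.44e-11). Fah, which encodes the last enzyme of tyrosine breakdown, stood at 51.6 and 51.5 CPM, against 5.02 and 6.16 CPM in remaining cells (8.7-fold higher, log2 3.12 ± 0.38 SE, adjusted p = 7.42e-08). Both enzymes are textbook genes of hepatocytes. The 10 hepatoblast markers together reached 46.3 and 24.2 CPM in the gated cells, against 184 and 112 CPM in remaining cells. In the gated cells 5 of these markers were detected and 5 had 0 UMIs, and a part of liver RNA in these values was not tested. Aplp1, a relative of the amyloid precursor protein gene, stood at 73 and 54.5 CPM, against 4.26 and 5.95 CPM in remaining cells (12.5-fold higher, log2 3.64 ± 0.37 SE, adjusted p = 8.98e-10). Sdc4, a heparan sulphate proteoglycan gene, stood at 142 and 160.4 CPM, against 16.6 and 16.9 CPM in remaining cells (8.54-fold higher, log2 3.09 ± 0.22 SE, adjusted p = 1.04e-13). For these 4 genes, both gated libraries lay above both libraries of remaining cells.

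Tcf21 stood at 262 and 327 CPM, against 49 and 66.3 CPM in remaining cells (4.86-fold higher, log2 2.28 ± 0.14 SE, adjusted p = 2.45e-15), and the mesothelial and epicardial list had 12 higher and 0 lower of 20 tested, with a median of 1.49. Outside the lists, the largest decrease was that of Hbb-bh0. It is annotated as a pseudogene of the globin family, and its reads may be shared with related globin genes. It had 0 UMIs in both gated libraries, against 231 and 148 CPM in remaining cells (at least 26.2-fold lower, adjusted p = 1.27e-15). Slc4a1, the band 3 gene of the red cell membrane, stood at 1.78 and 0 CPM, against 100 and 71.8 CPM in remaining cells (a ratio of 75.5 with an exact 95% counting interval of 13.5 to 2984, lower, adjusted p = 4.42e-10). The keratin gene Krt15 was among the 12 largest decreases outside the lists as well. Red cells are part of the remaining class, and the rule asks for markers that they do not carry.

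Among the gated cells themselves, 73 held a Tbx18 UMI (45 and 28) and 72 did not (36 and 36). Cells without Tbx18 had to hold 2 other gating genes, and their median depth was lower, at 5968 and 3991 UMIs with Tbx18 and 4017 and 3314 without. Of the cells with Tbx18, 29 and 15 also held Wt1 and 33 and 20 held Upk3b, against 26 and 16 with Wt1 and 31 and 31 with Upk3b among the cells without. With a Tbx18 UMI, 37 genes were higher (0.389% of 9501) and 16 lower (0.168%), and 0.558% were called in either direction, with 5 residual degrees of freedom. Without the library block 1 gene, Pam, was called, and thinning every cell to 1000 UMIs left 0 in each direction, so the split is given as a description of these libraries.

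Shox2 (chromosome 3), the homeobox gene of the sinus venosus and pacemaker region, stood at 124 and 70.3 CPM, against 0 and 6.26 CPM in cells without Tbx18 (a ratio of 39 with an exact 95% counting interval of 6.71 to 1565, higher, adjusted p = 5.88e-04). Of the 20 gated cells with a Shox2 UMI, 19 also held Tbx18, 15 held Upk3b, 11 held Wt1 and 2 held Isl1. Pam, which encodes an amidating enzyme of secretory granules abundant in atrial myocytes, stood at 225 and 217 CPM, against 53.3 and 50.1 CPM in cells without Tbx18 (4.37-fold higher, log2 2.13 ± 0.29 SE, adjusted p = 5.42e-05). The cardiac genes of the gate made up a median of 0.198% and 0.182% of UMIs in cells with Tbx18, against 0.0951% and 0.106% in cells without. The part of this difference, and of depth, in the calls was not tested.

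Several genes that set the gated cells apart from SHF mesenchyme were also unequal across this split. Itga4 stood at 354 and 339.9 CPM, against 38.8 and 12.5 CPM in cells without Tbx18 (13.1-fold higher, log2 3.71 ± 0.45 SE, adjusted p = 5.20e-06). Lhx9 stood at 267 and 416 CPM, against 67.9 and 100.2 CPM in cells without Tbx18 (4.04-fold higher, log2 2.02 ± 0.39 SE, adjusted p = 0.00622). Igfbp5 stood at 2441 and 1993 CPM, against 698 and 795 CPM in cells without Tbx18 (3.1-fold higher, log2 1.63 ± 0.20 SE, adjusted p = 5.20e-06). Both libraries of cells with Tbx18 were above both libraries without it for these 3 genes. Tcf21 was 2.02-fold higher, Sox9 4.86-fold and Mgarp 4.17-fold. Bcar3, by contrast, stood at 64.7 and 64.5 CPM in cells with Tbx18, against 53.3 and 81.4 CPM in cells without, and was not called.

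Genes lower in cells with Tbx18 included Msx1, a homeobox gene of limb and valve mesenchyme, at 5.62 and 5.86 CPM, against 48.5 and 87.6 CPM in cells without Tbx18 (a ratio of 11.5 with an exact 95% counting interval of 3.49 to 59.7, lower, adjusted p = 0.0141). Hlx, a homeobox gene of liver and gut mesenchyme, stood at 11.2 and 0 CPM, against 58.2 and 81.4 CPM in cells without Tbx18 (8.65-fold lower, adjusted p = 0.0488). Hoxa5, a homeobox gene of lung and foregut mesenchyme, stood at 16.9 and 5.86 CPM, against 121 and 56.3 CPM in cells without Tbx18 (7.18-fold lower, adjusted p = 0.00641). These genes rest on few cells. Over all gated cells, Msx1 had 27 UMIs in 12 cells, Hlx 29 in 15 and Hoxa5 41 in 18, with 14 of the last in 1 cell. Hes1, an effector of Notch, was 2.60-fold lower and lost its call without the 2 cells with blood or neural markers (adjusted p = 0.0551). Igfbp2 was 3.98-fold lower, but 58 of the 88 UMIs of replicate 2 without Tbx18 came from 1 cell. No junction or keratin gene was called in either direction out of 30, and the S-phase and G2 and M-phase lists had 0 called of 20 and 22. In libraries simulated in the same way, the fit for this split called 30.6% of 2-fold increases and 12.8% of 2-fold decreases. Differences of that size would mostly be missed.

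**Figure D5:**
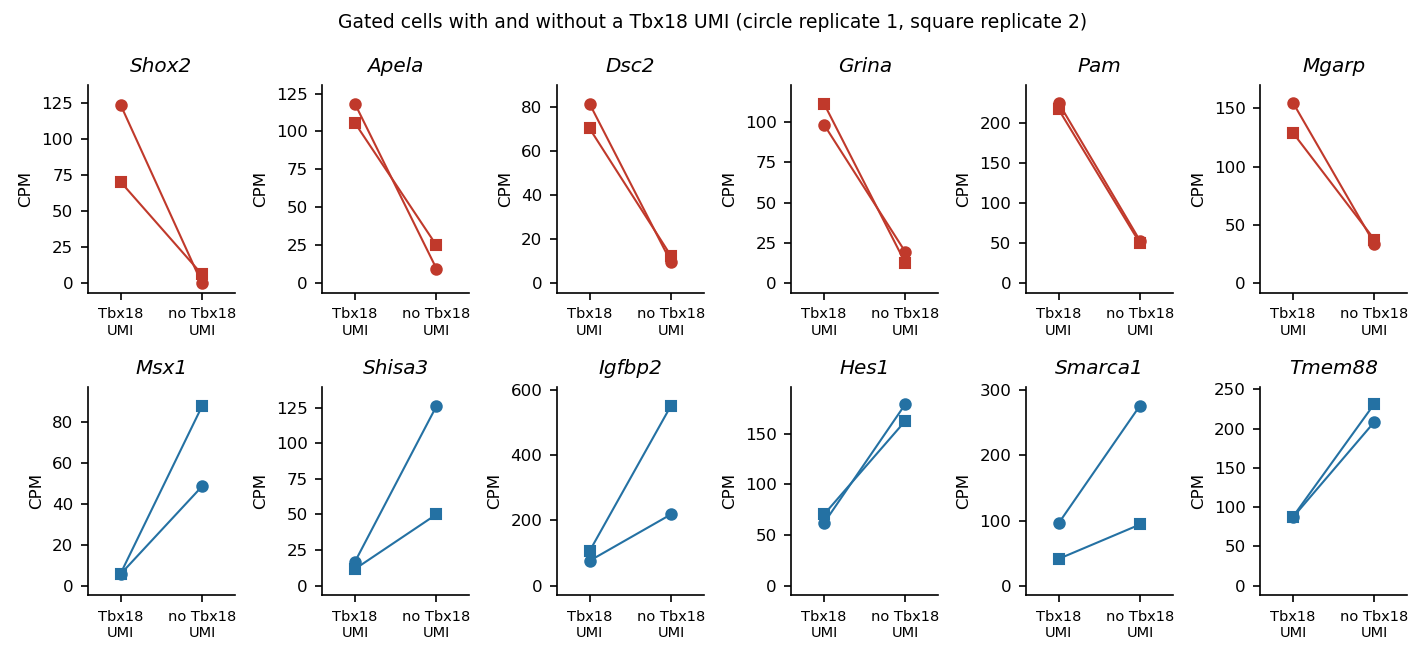
CPM (y axis, linear) in gated cells with a Tbx18 UMI (left in each panel) against those without (right). The top row shows the 6 largest increases and the bottom row the 6 largest decreases outside the gene lists. Some list members, such as Itga4 and Hlx, changed by more than genes shown. Circles and squares are replicates 1 and 2, each joined by a line. The replicates moved the same way in every panel, as the rule for naming the genes required.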

How the data were processed

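The authors deposited raw UMI counts, whole numbers for each gene in each barcode, and the values show no normalization (5000 and 7497 barcodes, 11958912 and 14131384 UMIs). The genome build mm10 and Scanpy appear in the submitters' processing notes with no version. The aligner, counter, use of strand and barcode selection were not given in the sources used here. Reads of overlapping or antisense genes therefore cannot be told apart, nor can those of the near-identical adult globin copies. Of the 52550 gene identifiers, 99.7% were found in GENCODE M21, and a symbol carried by several identifiers (90 symbols) stands for the one with the most UMIs.

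The rule, the members and the gene lists were chosen with earlier results of these data known. UMI counts were summed per class and library (10 sums, or 12 with the gated cells split by Tbx18), since cells are not replicates. Differences were tested with edgeR 4.0.16 in R 4.3.3 (two-sided quasi-likelihood test on TMM-scaled sums after filterByExpr, with class and library as terms), with Benjamini-Hochberg adjustment over all genes tested and a threshold of 0.05. The SE is the log2 fold change over the root of F. The replicate block is part of the design because the libraries were made on different days, per the labels' protocols, and deviations of sums from the same library correlated at 0.430 to 0.837 over 3807 genes. Replicates are pools of embryos. The block takes out the shift between the 2 pools, so p-values measure only how unevenly class differences repeat in them. That spread is estimated over all classes together and moderated across genes, and variation among embryos is not measured. CPM values are counts scaled to 1000000 UMIs per sum, without TMM scaling, and log2 differences within single libraries use counts plus 0.5. Folds against 1 to 3 UMIs are ratios with exact 95% counting intervals, and folds against 0 UMIs use a floor of 3 counts per library. Intervals and floors cover counting error only.

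Genes were named by rule. The first part was the 12 largest called changes in each direction (6 for epithelial cells and the Tbx18 split). These had at least 50 CPM in the higher class and the same direction in both libraries. Members of the gene lists, gating genes, unnamed gene models, Xist, Tsix and Y-linked genes were left out before this ranking. Some list members therefore changed by more than genes named in it. The rest were up to 5 members of each list by adjusted p against SHF mesenchyme, and the fixed markers. Other list genes were chosen after their values were seen. A gene that the rule would name stayed in every fit and is not reported here. The fit was tested on simulated data. Doublet scores came from Scrublet in scanpy 1.11.5. Barcodes of 10 to 200 UMIs numbered 117 and 333, too few to estimate free RNA. Alternatives were DESeq2 1.42.0 and its size factors, no filter, no library block, stricter or looser gates, depth limits, thinning and leaving out cells or a library.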

Additional observations from a re-analysis of the deposited data

How the results depend on the processing

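The library block and depth moved the counts most. With no replicate block, genes higher and lower numbered 160 and 30 against SHF mesenchyme, 331 and 632 against cardiomyocytes, 160 and 79 against remaining cells, 347 and 274 against epithelial cells, and 1 and 0 across the Tbx18 split (577 genes at an unadjusted p under 0.05). With cells thinned to 1000 UMIs they numbered 121 and 43, 186 and 306, 126 and 40, 164 and 115, and 0 and 0, in the same order of comparisons. In the last of these, 265 of 4386 genes had an unadjusted p under 0.05. Without thinning, the edgeR test called 53 genes across the split and DESeq2 called 41. DESeq2's Wald test called 152 genes lower against SHF mesenchyme, 160 against remaining cells and 388 against epithelial cells. It did not call Alox8, Arg1, Aldh1a2, Rdh10, Foxl1, Hoxa3 or Tubb3 against SHF mesenchyme. No filter on low counts gave 676 genes lower against remaining cells and 67 higher across the Tbx18 split. At least 3 gating genes gave 22 higher and 7 lower across the split. The mean share of gated cells was 0.626% with at least 3 gating genes, 2.57% of cells with at least 800 genes, and 1.07% with cardiac genes under 0.2%. The cause of these changes was not tested. Leaving out the 2 cells with blood or neural markers was an alternative chosen after seeing the data, and 4 of the 122 genes named by rule against SHF mesenchyme lost their calls in it. Leaving out a library gave values with no test. Without replicate 1, 36 of the 122 genes named by rule against SHF mesenchyme moved by more than the spread between libraries, and without replicate 2, 20 did. Of the genes named by rule and reported here, no called gene changed direction under the alternatives tried.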
